A study of Mus musculus with 8 samples.

Results

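The genes for the receptors of the myeloid growth factors were followed in CD103+ CD11b+ cDC, conventional dendritic cells that present antigen in the intestine and its lymph nodes. They were 8 of the 22180 genes measured: Csf1r, Flt3, Kit, Csf2ra, Csf2rb, Csf2rb2, Csf3r and Il3ra. A gene was included when a probe set was annotated to it alone, and each of the 8 had 1 such probe set. Male C57BL6 mice aged 8 weeks and fed control chow gave the mesenteric lymph nodes from which the cells were sorted, and expression was read on 8 microarrays. On 4 arrays the cells came from mice with the hBcl-2 transgene, human BCL2 driven by the promoter of CD11c, and on the other 4 from wild-type littermates. CD11c is carried by most dendritic cells and by some other myeloid and lymphoid cells, so the transgene need not be confined to the sorted cDC. To collect enough cells, 2 to 3 samples of a genotype were pooled for each array. The labels do not tie animals to pools, so p-values measure the spread among pools. Precision is limited by having 4 arrays a group.

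Growth factor receptors of myeloid cells belong to structurally distinct families. CSF1R, FLT3 and KIT are receptor tyrosine kinases, which pair upon binding their ligand and phosphorylate themselves. The GM-CSF and IL-3 receptors are built from a ligand-specific alpha chain and a shared beta chain and signal through JAK2 and STAT5, while the G-CSF receptor is a pair of identical chains. FLT3 and its ligand drive the formation of cDC from bone marrow progenitors, and GM-CSF is known to support the CD103+ CD11b+ cDC of the intestine.

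RefSeq promoter windows (GRCm38.p6, from 250 bases before to 50 after a gene's start) were at hand for 6 of the 8 genes. Those of the 4 genes among these whose values did not overlap between the genotypes are shown. Kit and Csf2rb2 were higher in transgenic cells. Csf2ra and Flt3 had lower values there that did not pass (limma adjusted p = 0.163 and 0.350). The arrays measured RNA and not the activity of promoters. Capitals mark the letters GAGGAA on either strand, a sequence that holds the core bound by ETS family factors such as PU.1, and TTCNNNGAA, the spacing bound by STAT dimers. The sequences run 5′ to 3′ along the gene's strand.
Kit, chr5:75574737-75575036, strand +: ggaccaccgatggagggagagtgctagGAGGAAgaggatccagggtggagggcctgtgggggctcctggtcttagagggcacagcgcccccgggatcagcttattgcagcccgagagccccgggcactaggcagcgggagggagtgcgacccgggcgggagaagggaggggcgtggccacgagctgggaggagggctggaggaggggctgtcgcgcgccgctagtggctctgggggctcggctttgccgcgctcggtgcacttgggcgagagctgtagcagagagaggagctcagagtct
Csf2rb2, chr15:78305672-78305971, strand -: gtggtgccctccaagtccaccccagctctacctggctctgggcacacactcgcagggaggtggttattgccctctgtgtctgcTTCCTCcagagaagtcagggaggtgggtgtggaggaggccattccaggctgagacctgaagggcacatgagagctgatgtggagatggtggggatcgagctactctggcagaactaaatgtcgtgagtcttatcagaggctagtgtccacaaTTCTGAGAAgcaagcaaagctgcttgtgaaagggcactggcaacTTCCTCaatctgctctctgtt
Csf2ra, chr19:61228369-61228668, strand -: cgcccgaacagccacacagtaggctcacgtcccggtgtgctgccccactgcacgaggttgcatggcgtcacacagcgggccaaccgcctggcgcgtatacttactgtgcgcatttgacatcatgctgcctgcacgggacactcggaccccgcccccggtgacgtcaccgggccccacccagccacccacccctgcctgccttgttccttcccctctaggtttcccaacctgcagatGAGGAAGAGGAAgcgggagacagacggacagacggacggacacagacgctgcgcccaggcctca
Flt3, chr5:147400440-147400739, strand -: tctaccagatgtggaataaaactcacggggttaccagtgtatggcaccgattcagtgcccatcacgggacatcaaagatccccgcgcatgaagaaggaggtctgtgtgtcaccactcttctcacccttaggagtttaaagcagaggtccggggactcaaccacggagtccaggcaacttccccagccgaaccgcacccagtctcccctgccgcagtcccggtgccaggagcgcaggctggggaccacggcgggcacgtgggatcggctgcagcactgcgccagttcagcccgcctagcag
The window of Kit held GAGGAA 1 time, that of Csf2rb2 2 times and that of Csf2ra 2 times, 1 directly after the other, and the Flt3 window held it 0 times. Of 32851 windows of 300 bases in the whole table, 28.3% held GAGGAA on either strand. Csf2rb2 had 1 match to TTCNNNGAA, found in 8.3% of all windows, and the other 3 windows shown had 0.

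The values are log2 values brought to a similar scale between arrays by the authors, and a difference of 1 is a doubling. Array medians still ran from 5.045 to 5.147 and SDs over probe sets from 2.003 to 2.108. As a gauge of background, 95% of 1390 olfactory and vomeronasal receptor genes, which dendritic cells are not known to use, had a mean below 5.36. Itgax, the gene of CD11c, was well above this in both groups, at 9.22 ± 0.29 in transgenic and 9.05 ± 0.09 in wild-type arrays (SD, n = 4 each). Among other cDC genes, Ccr7 (13.06 and 12.99) and H2-Ab1 (12.75 and 13.00) were bright in transgenic and wild-type arrays. The genes of the sorting markers lay close to background: Itgae (CD103) averaged 5.40 in transgenic and 5.66 in wild-type arrays, and Itgam (CD11b) 5.58 and 5.57. The probe sets are annotated to mouse genes and gave no check of the human transgene. The probe set of mouse Bcl2 averaged 6.86 in transgenic and 6.11 in wild-type arrays, with a log2 fold of 0.74 that did not pass (limma adjusted p = 0.139). Whether it also sees transcripts of the human gene was not tested. Transgenic replicate 4 had the highest median and the smallest SD of the 8 arrays. It was also the least like its group, correlating with the others at 0.974 on average. That figure was 0.980 to 0.983 for the other 3 transgenic and 0.986 to 0.988 for the wild-type arrays. All 8 receptor genes had their lowest transgenic value on that array, which also held the lowest transgenic value of 43.2% of the 10962 genes above background.

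Of the 8 receptor genes, Csf1r, Kit and Csf2rb2 rose in transgenic cells, by 1.71-fold to 2.24-fold, 0 fell and 5 did not pass (limma, Benjamini-Hochberg adjusted p below 0.05 over all genes). The count of receptor genes that passed was 1 without wild-type replicate 1, 2 or 3 and 2 to 4 without any other single array, and 2 without transgenic replicates 2 and 4 together. At an unadjusted p below 0.05 there were 4 higher and 2 lower receptor genes, against 13.2% of all genes in either direction. Over all 22180 genes 1.69% passed in either direction and 0.839% were higher. Among the 10962 genes with a mean above background, which include all 8 receptor genes, 3.18% passed. The transgenic and wild-type arrays did not overlap for 5 of the 8, against 8.94% of all genes: the 3 that rose, and Flt3 and Csf2ra, whose 4 transgenic values all lay below the wild-type ones. The background for groups apart was 4% of all genes higher and 4.94% lower in transgenic arrays. The receptor genes were chosen with earlier results of these data known, so these shares are no independent result. The members split evenly, with 4 positive and 4 negative log2 folds and a median of 0.25, against -0.0016 for all genes. In pooled bulk RNA, a change in the number of cells that use a gene and a change in RNA per cell cannot be told apart.

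**Figure D1:**
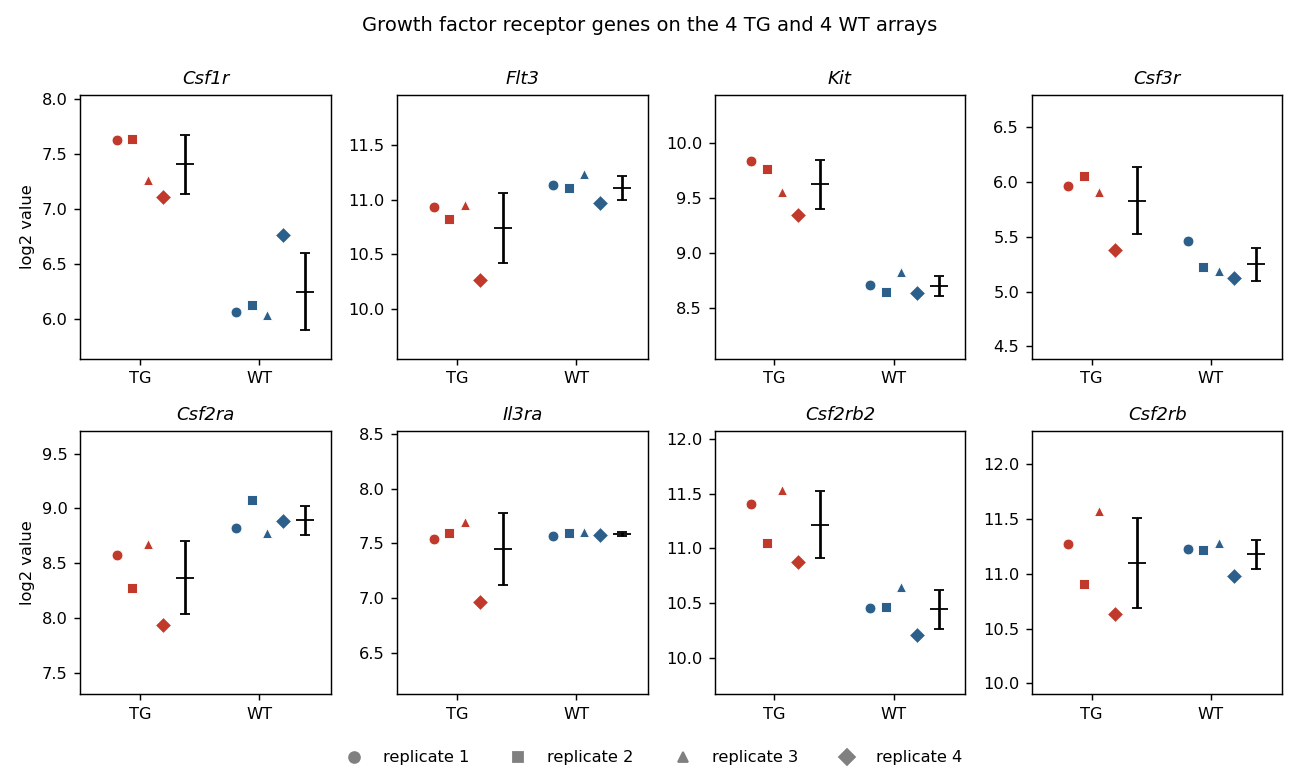
Log2 values of the 8 receptor genes on the 4 transgenic (TG, red) and 4 wild-type (WT, blue) arrays, a panel per gene; marker shapes give the replicate number and black bars the mean and SD of a group, and the axes span equal ranges that do not start at 0. The groups are apart for Csf1r, Kit and Csf2rb2 (higher in TG) and for Flt3 and Csf2ra (lower in TG), and TG replicate 4 is the lowest TG array in all 8 panels.

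Among the receptor tyrosine kinases, Csf1r encodes the receptor for M-CSF and IL-34, which macrophages and monocytes depend on. It had log2 values of 7.62, 7.64, 7.26 and 7.10 in transgenic arrays, against 6.06, 6.13, 6.04 and 6.76 in wild-type arrays. Every transgenic array was above every wild-type array, although wild-type replicate 4 came within 0.34 of the lowest transgenic array. The means of 7.41 ± 0.27 and 6.25 ± 0.35 (SD, n = 4 each) differ by a log2 fold of 1.16 (SE 0.19, 95% interval 0.74 to 1.58; limma adjusted p = 0.0183). Leaving out wild-type replicate 1, 2 or 3 ended the call (limma adjusted p = 0.0649, 0.0668 and 0.0648), while the log2 fold stayed between 1.08 and 1.33 over the 8 fits that left out 1 array.

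Kit, the receptor for stem cell factor, is known from progenitors and mast cells. Its log2 values were 9.84, 9.76, 9.56 and 9.34 in transgenic arrays, against 8.71, 8.64, 8.83 and 8.63 in wild-type arrays. The gap between the groups, 0.51 from the lowest transgenic to the highest wild-type array, was wider than the whole wild-type range. Kit averaged 9.63 ± 0.22 in transgenic and 8.70 ± 0.09 in wild-type arrays (SD, n = 4 each), a log2 fold of 0.92 (SE 0.13, 95% interval 0.64 to 1.21; limma adjusted p = 0.01). It passed with any 1 of the 8 arrays left out, at limma adjusted p values from 0.00619 to 0.0411.

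Flt3, the receptor through which cDC progenitors are driven to form dendritic cells, went the other way. Its log2 values were 10.93, 10.82, 10.95 and 10.27 in transgenic arrays, against 11.13, 11.10, 11.23 and 10.97 in wild-type arrays. The groups do not overlap, but the highest transgenic and the lowest wild-type array were only 0.016 apart, and the spread among transgenic arrays (10.74 ± 0.32, SD, n = 4) was wider than in wild type (11.11 ± 0.11, SD, n = 4). The log2 fold was -0.37 (SE 0.16, 95% interval -0.72 to -0.02) and did not pass (limma adjusted p = 0.350). Without transgenic replicate 4 it was -0.21 (limma adjusted p = 0.411). Kit and Flt3, both tyrosine kinase receptors of dendritic cell progenitors, thus had differences of opposite sign in the same pools, and only that of Kit passed.

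**Figure D2:**
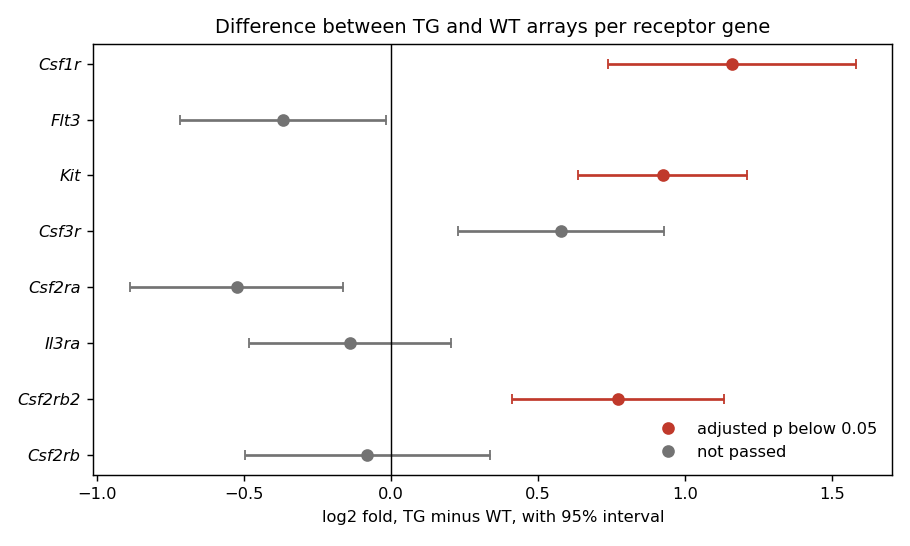
Log2 fold (transgenic minus wild type, horizontal axis) of each receptor gene with its 95% interval from limma; red points passed at an adjusted p below 0.05 and grey points did not. Csf1r (1.16), Kit (0.92) and Csf2rb2 (0.77) lie to the right, and the intervals of Flt3 and Csf2ra lie below 0 without passing over all genes.

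Of the 4 chains of the GM-CSF and IL-3 receptors, Csf2rb2 rose and the other 3 did not pass. Csf2ra, the alpha chain that binds GM-CSF, had log2 values of 8.57, 8.28, 8.68 and 7.94 in transgenic arrays, against 8.82, 9.08, 8.78 and 8.89 in wild-type arrays. All 4 transgenic values were below all wild-type ones, and the nearest pair was 0.10 apart. Its mean was 8.37 ± 0.33 in transgenic and 8.89 ± 0.13 in wild-type arrays (SD, n = 4 each), a log2 fold of -0.53 (SE 0.16, 95% interval -0.89 to -0.16) that did not pass (limma adjusted p = 0.163), and -0.38 (adjusted p = 0.197) without transgenic replicate 4. Il3ra, the alpha chain for IL-3, also called CD123, had log2 values of 7.54, 7.59, 7.69 and 6.96 in transgenic arrays, against 7.57, 7.59, 7.60 and 7.58 in wild-type arrays. The wild-type values were nearly identical (SD 0.015), the groups overlapped, and the log2 fold of -0.14 (SE 0.15, 95% interval -0.48 to 0.20; limma adjusted p = 0.786) turned to 0.02 (adjusted p = 0.948) without transgenic replicate 4.

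Csf2rb2 rose while Csf2rb did not pass. Csf2rb encodes the common beta chain, shared by the receptors for GM-CSF, IL-3 and IL-5, and Csf2rb2 its mouse-specific copy, which serves the IL-3 receptor. Only a microRNA gene stands between them on chromosome 15 in the RefSeq annotation. Csf2rb2 had log2 values of 11.41, 11.05, 11.54 and 10.88 in transgenic arrays, against 10.46, 10.46, 10.65 and 10.21 in wild-type arrays. The groups were apart, with means of 11.22 ± 0.31 and 10.45 ± 0.18 (SD, n = 4 each) and a log2 fold of 0.77 (SE 0.16, 95% interval 0.41 to 1.13; limma adjusted p = 0.0466). Csf2rb had log2 values of 11.27, 10.90, 11.57 and 10.64 in transgenic arrays, against 11.22, 11.22, 11.28 and 10.98 in wild-type arrays. Its transgenic values lay on both sides of the wild-type ones, at 11.10 ± 0.41 against 11.18 ± 0.13 (SD, n = 4 each), with a log2 fold of -0.08 (SE 0.19, 95% interval -0.50 to 0.34; limma adjusted p = 0.918). Without transgenic replicate 4 it was 0.07 (limma adjusted p = 0.886).

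The call of Csf2rb2 was close to the threshold and was lost without any one of transgenic replicates 1, 2 and 3 and wild-type replicates 1 to 4 (limma adjusted p from 0.0716 to 0.121), though its log2 fold stayed between 0.67 and 0.89 and it passed without transgenic replicate 4 (adjusted p = 0.0263). Within each array, where any scaling of the array cancels, Csf2rb2 minus Csf2rb was 0.13, 0.15, -0.04 and 0.24 in transgenic arrays, against -0.77, -0.76, -0.63 and -0.77 in wild-type arrays. The group means of this difference were 0.12 ± 0.12 and -0.73 ± 0.07 (SD, n = 4 each), 0.85 apart, with no overlap; no test was made of it, and the levels of separate probe sets are not comparable in themselves. The 2 genes are close copies, so either probe set may also see transcripts of the other, and the split between them is uncertain.

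Csf3r, the G-CSF receptor of the neutrophil lineage, was dim. Its log2 values were 5.97, 6.06, 5.91 and 5.38 in transgenic arrays, against 5.46, 5.22, 5.19 and 5.12 in wild-type arrays. Of the transgenic arrays 3 lay above all wild-type arrays and replicate 4 among them, and the wild-type mean of 5.25 ± 0.15 (SD, n = 4) was below the background gauge. The transgenic mean was 5.83 ± 0.30 (SD, n = 4), a log2 fold of 0.58 (SE 0.16, 95% interval 0.23 to 0.93) that did not pass (limma adjusted p = 0.111). Without transgenic replicate 4 the log2 fold was 0.73 and passed (limma adjusted p = 0.0210). Of 10 neutrophil markers 0 passed limma's test, also at an unadjusted p below 0.05, and 9, S100a8, S100a9 and Ly6g among them, were at background in both groups; their summed linear signal was 215.5 to 270.6 in transgenic and 227.5 to 271.9 in wild-type arrays.

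Markers of other cells that use these receptors were read beside them. Counts at an unadjusted p below 0.05 in these and the following lists stand against 13.2% of all genes in either direction. Csf1r is a macrophage and monocyte gene, and of 22 measured markers of those cells only Adgre1, which encodes a surface receptor used to identify macrophages, passed. Adgre1 had log2 values of 7.67, 7.67, 7.17 and 7.13 in transgenic arrays, against 6.43, 6.17, 5.66 and 6.24 in wild-type arrays (log2 fold 1.29, SE 0.19; limma adjusted p = 0.0128). Its transgenic replicates 1 and 2 were the higher pair, as for Csf1r, but Kit and Csf3r had the same higher pair. The other 21 did not pass; at an unadjusted p below 0.05 in limma, 5 of the 22 were higher, Adgre1 among them, and 1 was lower. Of the 22, 13 had a positive and 9 a negative log2 fold, with a median of 0.04, and Fcgr1, Fcgr4, Mertk, Cd163, Mrc1, Vcan and Siglec1 were at background in both groups. C1qa, a complement gene of tissue macrophages, was 6.27 ± 0.07 in transgenic and 6.44 ± 0.07 in wild-type arrays (SD, n = 4 each), and Lyz2, the lysozyme of macrophages and monocytes, was 10.70 ± 0.43 and 10.78 ± 0.46. Cd14, a lipopolysaccharide co-receptor of monocytes, was 5.98 ± 0.32 in transgenic and 5.25 ± 0.56 in wild-type arrays (log2 fold 0.74, SE 0.26; limma adjusted p = 0.226). Cx3cr1, the fractalkine receptor of monocytes and macrophages, was 7.40 ± 0.19 in transgenic and 6.84 ± 0.47 in wild-type arrays (log2 fold 0.56, SE 0.22; limma adjusted p = 0.276). Cd68, a lysosomal glycoprotein of macrophages, was 10.18 ± 0.24 in transgenic and 9.85 ± 0.16 in wild-type arrays (log2 fold 0.33, SE 0.14; limma adjusted p = 0.353). The scavenger receptor gene Marco was 5.52 ± 0.36 in transgenic and 6.13 ± 0.48 in wild-type arrays (log2 fold -0.62, SE 0.25; limma adjusted p = 0.301). The monocyte marker Ly6c2 was high on transgenic replicates 2 (10.38) and 1 (8.28) and was 7.11 and 5.81 on replicates 4 and 3, against 5.46 to 6.83 in wild-type arrays. The summed linear signal of the list was 3559 to 6810 in transgenic and 3654 to 5329 in wild-type arrays. The part of these cells in the Csf1r result was not tested.

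**Figure D3:**
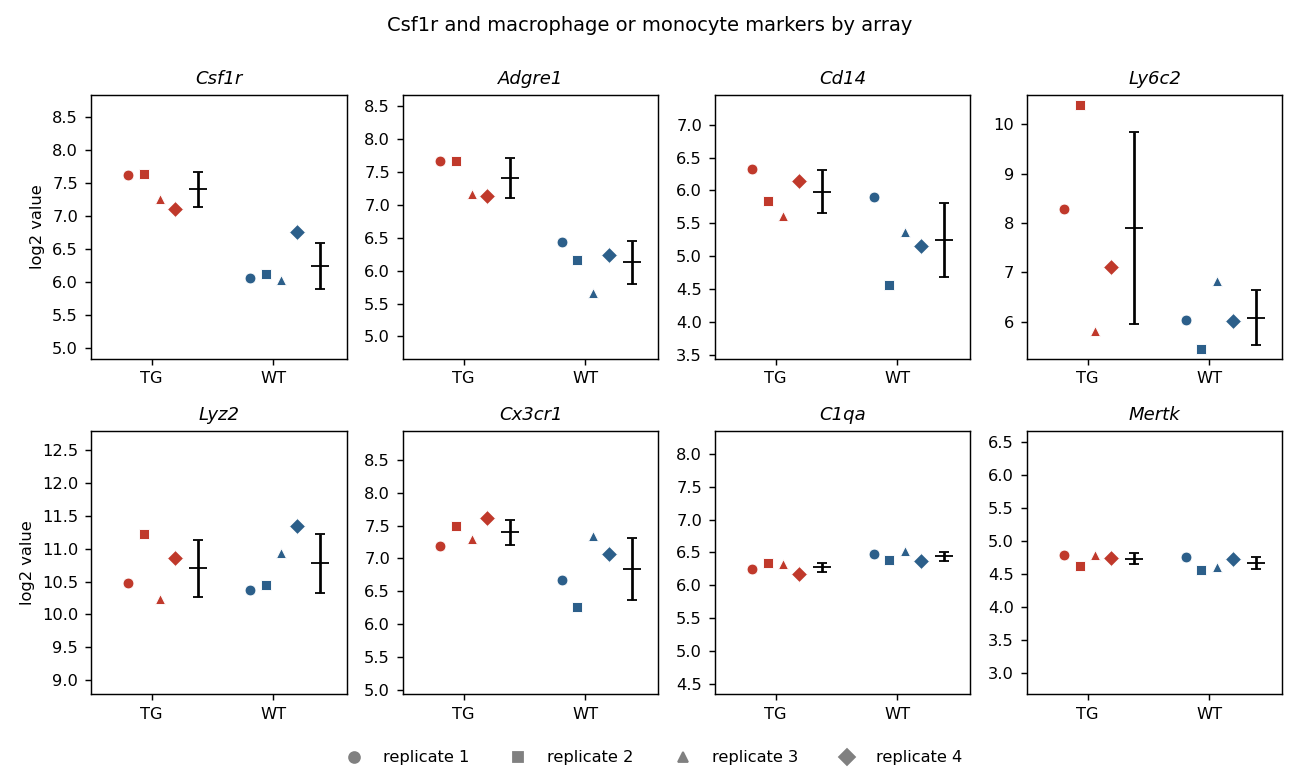
Log2 values of Csf1r and 7 macrophage or monocyte markers on the 4 transgenic (TG, red) and 4 wild-type (WT, blue) arrays, with replicate numbers as marker shapes and bars for mean and SD; the axis of Ly6c2 spans a wider range than the others and no axis starts at 0. Csf1r and Adgre1 are apart between the groups, Ly6c2 is high on TG replicates 1 and 2, Cd14 and Cx3cr1 have the higher mean in TG with overlapping groups, and C1qa, Lyz2 and Mertk overlap or lie lower in TG.

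For Kit, all 13 measured markers of mast cells and basophils, Cpa3, Ms4a2 and Fcer1a among them, were at background in both groups; 0 passed limma's test and 2 were lower at an unadjusted p below 0.05. Their summed linear signal was 204 to 253 in transgenic and 224 to 261 in wild-type arrays. Of 9 progenitor markers 0 passed limma's test, also at an unadjusted p below 0.05, and 7, with Cd34 and Mpo, were at background (329 to 462 in transgenic and 385 to 440 in wild-type arrays). Kit is also used by innate lymphoid cells, and in the list of T, NK and innate lymphoid cell markers Cd4 (log2 fold 1.18) and the receptor gene Klrd1 (1.51) rose and 13 of 15 did not pass (limma); the summed signal was 1940 to 3001 in transgenic and 1193 to 1742 in wild-type arrays, and the part of those cells in the rise of Kit was not tested. Klrd1 carried that gap: without it the sums overlapped, at 621 to 1242 in transgenic and 552 to 1215 in wild-type arrays. Of these 15 markers, 9 had a positive and 6 a negative log2 fold. By unadjusted p below 0.05 in limma 2 were higher and 1, Cd8a, was lower (log2 fold -0.75, limma adjusted p = 0.215). Flt3 is bright in cDC1 and plasmacytoid dendritic cells. Of 9 cDC1 markers 0 passed limma's test and 3 were lower at an unadjusted p below 0.05. Their summed linear signal was lower without overlap, at 2919 to 3699 in transgenic and 3868 to 4303 in wild-type arrays. Such a sum rests mostly on the brightest genes, here Batf3 (10.60 in transgenic and 10.70 in wild-type arrays) and Irf8 (10.09 and 10.58). Of the 9, Irf8 alone had groups that did not overlap (limma adjusted p = 0.161), and the sum without it was not taken. The part of cDC1 in the Flt3 difference was not tested. Of 11 plasmacytoid markers Bst2 alone rose (log2 fold 0.76; limma adjusted p = 0.0204, lost without transgenic replicates 2 or 3 or wild-type replicates 1, 2 or 3 at up to 0.0719). The list's sum ran from 2598 to 4407 in transgenic and from 3097 to 3278 in wild-type arrays. Of the 11, 7 had a positive and 4 a negative log2 fold. At an unadjusted p below 0.05 in limma 1 was higher and 1, Spib, was lower (log2 fold -0.64, limma adjusted p = 0.0791). Among 15 markers of cDC, Esam, an adhesion molecule of CD11b+ cDC, fell (log2 fold -0.62, SE 0.12; limma adjusted p = 0.032) and the others did not pass. The call of Esam was lost in 6 of the 8 fits that left out 1 array, without any of transgenic replicates 1 to 3 and wild-type replicates 1, 2 and 4 (adjusted p up to 0.103). Of 9 B cell markers 0 passed limma's test, also at an unadjusted p below 0.05.

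Of the measured ligands of the receptors, all but Csf1 were at background in the sorted cells. Flt3l, the gene of the FLT3 ligand, was not among the genes measured. Of the 7 measured, Il34, Kitl, Csf2, Csf3, Il3 and Il5 were at background in both groups, and Csf1, the gene of M-CSF, averaged 5.77 ± 0.16 in transgenic and 6.19 ± 0.41 in wild-type arrays (SD, n = 4 each). By limma 0 of the 7 passed, and 1, Kitl, was higher at an unadjusted p below 0.05. Among 23 related cytokine and tyrosine kinase receptors, 1 rose and 22 did not pass. The 1 was Il6ra, the alpha chain that binds IL-6, with log2 values of 8.63, 8.45, 7.92 and 8.77 in transgenic arrays, against 6.85, 7.22, 7.38 and 7.46 in wild-type arrays. The groups are apart, and the log2 fold was 1.21 (SE 0.20; limma adjusted p = 0.0181), lost without wild-type replicate 1 or 2 (adjusted p up to 0.0612).

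Of 33 measured signal transducers, 1 rose, 3 fell and 29 did not pass, with a median log2 fold of -0.10. At an unadjusted p below 0.05 in limma, 3 were higher and 9 lower, against 13.2% of all genes in either direction. Map2k1, the kinase MEK1 of the RAS pathway, had a log2 fold of -0.97 (SE 0.16; limma adjusted p = 0.0181), at 7.88 ± 0.28 in transgenic against 8.85 ± 0.20 in wild-type arrays (SD, n = 4 each). Stat4, a transcription factor activated by IL-12 and type I interferon, fell (log2 fold -0.79, SE 0.17; limma adjusted p = 0.0462), and Tyk2, the Janus kinase of those receptors, fell as well (log2 fold -0.71, SE 0.14; limma adjusted p = 0.038). Tec, a cytoplasmic tyrosine kinase that acts downstream of KIT and cytokine receptors, rose, with log2 values of 9.86, 9.50, 9.78 and 9.38 in transgenic arrays, against 8.998, 8.96, 9.09 and 8.71 in wild-type arrays (log2 fold 0.69, SE 0.14; limma adjusted p = 0.0403). The kinase and factor named for the GM-CSF receptor did not pass: Jak2 was at -0.24 (SE 0.11; limma adjusted p = 0.381), Stat5a at -0.70 (SE 0.18; 0.0869) and Stat5b at -0.32 (SE 0.16; 0.440). Leaving out single arrays ended the calls of Stat4, Tyk2 and Tec in 7 of 8 fits each, with adjusted p values up to 0.133, 0.111 and 0.105; only without transgenic replicate 1 did Stat4 and Tyk2 pass, and only without transgenic replicate 4 did Tec. The call of Map2k1 was lost without wild-type replicates 1, 2 or 4 (up to 0.0629).

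Of 30 measured feedback inhibitors of these pathways, 2 fell, 0 rose and 28 did not pass. At an unadjusted p below 0.05 in limma, 1 was higher and 5 were lower, against 13.2% of all genes in either direction. Socs2, which is induced by STAT5 and restrains cytokine signalling, had log2 values of 9.74, 9.68, 9.72 and 9.50 in transgenic arrays, against 10.52, 10.75, 10.33 and 10.44 in wild-type arrays. Its log2 fold was -0.85 (SE 0.12; limma adjusted p = 0.0105), and it passed with any 1 array left out. Ptpn6, the phosphatase SHP-1 that dampens signals of KIT and cytokine receptors, fell (log2 fold -0.55, SE 0.12; limma adjusted p = 0.048), a call that was lost in each of the 8 fits that left out 1 array (adjusted p from 0.0608 to 0.126). Of 19 genes known to respond to GM-CSF or STAT5, 0 rose, 2 fell and 17 did not pass, with a median of -0.24 and 1 higher and 6 lower at an unadjusted p below 0.05 in limma. The 2 were Socs2 again, and Bcl2l1, the gene of the survival protein BCL-XL (log2 fold -0.78, SE 0.13; limma adjusted p = 0.0181, lost without wild-type replicates 2, 3 or 4 at up to 0.0639). Cish, a close relative of Socs2 that STAT5 also induces, was at -0.14 (SE 0.36; limma adjusted p = 0.922).

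**Figure D4:**
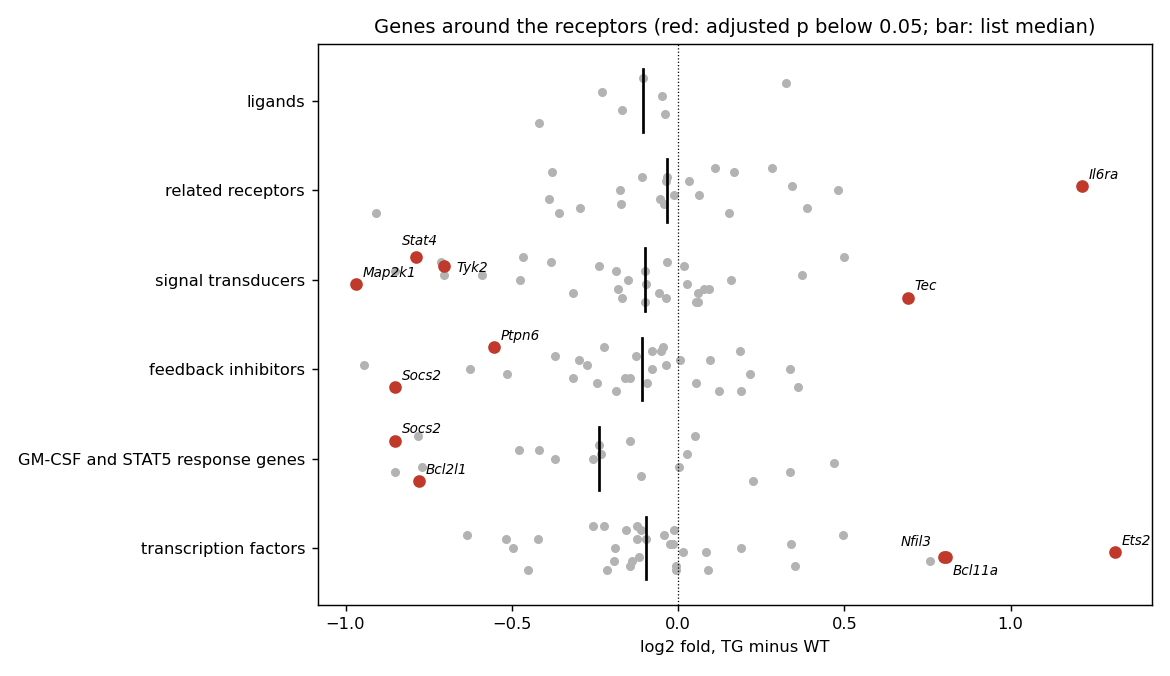
Log2 fold (transgenic minus wild type, horizontal axis) of each measured gene in 6 lists of ligands, receptors, transducers, inhibitors, response genes and transcription factors; red named points passed limma at an adjusted p below 0.05, and black bars are list medians. The named points left of 0 are Map2k1, Stat4, Tyk2, Ptpn6, Socs2 and Bcl2l1, and those right of 0 are Il6ra, Tec, Ets2, Nfil3 and Bcl11a.

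Of 35 measured transcription factors of myeloid and dendritic cell development, 3 rose, 0 fell and 32 did not pass. At an unadjusted p below 0.05 in limma, 6 were higher and 4 lower, against 13.2% of all genes in either direction. Ets2, an ETS family factor that acts downstream of the M-CSF receptor, rose, with log2 values of 11.18, 10.74, 10.87 and 10.38 in transgenic arrays, against 9.76, 9.58, 9.23 and 9.35 in wild-type arrays (log2 fold 1.31, SE 0.18; limma adjusted p = 0.00889). Its call held with any 1 array left out. Nfil3, a basic leucine zipper factor of lymphoid and cDC1 development, rose by 0.80 (SE 0.13; limma adjusted p = 0.0203), and Bcl11a, a zinc finger factor of B cell and plasmacytoid dendritic cell development, by 0.80 (SE 0.16; limma adjusted p = 0.036). Nfil3 no longer passed without transgenic replicate 2 or wild-type replicates 2, 3 or 4 (adjusted p up to 0.0676), nor Bcl11a without transgenic replicates 1, 2 or 3 or wild-type replicates 1, 3 or 4 (up to 0.108). Spi1, which encodes PU.1, a factor that activates Csf1r, was 10.05 ± 0.16 in transgenic and 10.05 ± 0.04 in wild-type arrays (SD, n = 4 each; log2 fold -0.0049, 95% interval -0.25 to 0.24). The 6 lists together hold 142 measured genes, of which 5 rose and 6 fell, 7.75% against the 1.69% over all genes. Among genes with a mean above the background gauge the shares were 9.09% of the 121 listed and 3.18% of all. The lists were chosen with earlier results of these data known, so the shares do not show that these pathways hold more changes.

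Other genes on the array followed the 3 that rose. By Pearson correlation over the 8 arrays, the genes most like Csf1r were Socs1 (r = 0.979), which restrains cytokine signalling, Sema4d (0.976), a semaphorin, and Nucks1 (0.976), a nuclear protein. For Kit they were the choline kinase gene Chka (r = 0.990), Rcn3 (0.983) and the sialyltransferase gene St8sia6 (0.979), and for Csf2rb2 they were Tec (0.989), Dync2h1 (0.985) and Thada (0.983). Such values describe 8 arrays in 2 groups out of a search of 22180 genes, in which 123, 128 and 106 genes had an r above 0.9 with Csf1r, Kit and Csf2rb2. After the group means were removed, r was 0.876 to 0.949 for the 3 genes of Csf1r, 0.796 to 0.924 for those of Kit and 0.940 to 0.954 for those of Csf2rb2. Dync2h1 was below background in both groups (4.88 in transgenic and 4.63 in wild-type arrays). Socs1, Sema4d, Nucks1, St8sia6 and Dync2h1 did not themselves pass (limma adjusted p from 0.0755 to 0.313).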

How the data were processed

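Gene expression was measured in 4 pools of transgenic and 4 of wild-type CD103+ CD11b+ cDC. Per the labels' protocols, whole-transcriptome amplification started from 2.5 ng of total RNA. The deposited table holds log2 values for each probe set. Partek and RMA are named, without versions, per the submitters' processing notes. RMA makes the distributions of arrays more alike, so a shift of all genes would not be seen. The sources used here name neither genome build nor filters.

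Of 34390 probe sets, 23521 name 1 gene in the platform annotation, 1814 several and 9055 none. Only the first were used, with the probe set of highest mean for the 1082 genes with several, which left 22180 genes. The fit (lmFit, eBayes) used R 4.3.3 and limma 3.58.1, transgenic minus wild type, and p-values were adjusted by Benjamini-Hochberg over the whole table, with 0.05 as the threshold. Statmod 1.5.0 and matplotlib 3.10.9 were also used. The procedure was tested on simulated data, where it recovered 30.8% of 1.5-fold and 75.8% of 2-fold changes, with 4.89% of calls false. A gene that did not pass may thus still differ by a small fold.

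The receptor genes and the 15 lists (6 of the pathway, 9 of cell type markers) were chosen with earlier results of these data known. The rule let the text name the 8 receptor genes, up to 6 members of a list past the threshold in each direction, the 2 with the highest and lowest moderated statistic, and the 3 genes most correlated with a receptor gene that passed. Genes outside it, such as the sorting markers, Stat5a, Spi1 and single cell type markers, were picked with values known. The alternatives were other variance moderation, filters on dim genes, quantile normalization again, median centring, other use of probe sets, a block by replicate number, array weights, other thresholds and fits that left out arrays. Same-numbered arrays did not deviate together (correlations of deviations from -0.03 to 0.08). Such values from single arrays cannot exclude that the numbers pair the pools, so the pairing stays unknown.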

Additional observations from a re-analysis of the deposited data

Results flagged for a closer look

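Csf1r on wild-type replicate 4 was at 6.76, apart from the other wild-type arrays, which lay between 6.04 and 6.13. The gap to the nearest was 0.876 of the group's range, above Dixon's 95% critical value for 4 samples. The test was run on 48 groups of arrays (24 genes), of which 1 was beyond the value, and chance gives about 1 in 20. Without this array the log2 fold of Csf1r was 1.33 (limma adjusted p = 0.0105), against 1.16 with it.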

How the results depend on the processing

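Kit kept its direction in all alternatives run, and its call in all but the fit without variance moderation and the threshold of 0.01. Without variance moderation 35 genes and 0 receptor genes passed in limma, with adjusted p values of 0.131 for Csf1r (log2 fold 1.16), 0.0775 for Kit (0.92) and 0.185 for Csf2rb2 (0.77). With arrays centred on their median, Csf2rb2 was at 0.77 (adjusted p = 0.0644). With array weights, Csf2rb turned to 0.024 and Csf3r passed at 0.67 (adjusted p = 0.0259). With the replicate block, 187 genes passed and Csf1r (log2 fold 1.16) did not (adjusted p = 0.0645), while no other receptor gene changed its call. At thresholds of 0.01 and 0.1, 57 and 747 genes passed, and 0 receptor genes at 0.01. Leaving out 1 array in turn gave 106 to 379 genes and 1 to 4 receptor genes. Over these 8 fits the log2 folds ran from 1.08 to 1.33 for Csf1r, 0.67 to 0.89 for Csf2rb2, 0.50 to 0.73 for Csf3r, -0.24 to 0.073 for Csf2rb and -0.22 to 0.022 for Il3ra. With transgenic replicates 2 and 4 both left out, chosen after seeing the data, 148 genes passed, Csf1r was at 1.196 (adjusted p = 0.0623), and Csf2rb (0.25) and Il3ra (0.029) turned positive. Flt3 and Csf2ra passed in none of the alternatives, with lowest adjusted p values of 0.216 and 0.0966 in limma. Of 600 list counts under alternatives, 72 moved by over 1.5 times or between 0 and another count. Many of the 600 were 0 in the main fit and stayed at 0, so counts above 0 were less stable than this share. The dim Csf3r lies at the limit of measurement.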
